A study of Mus musculus with 128 samples.

Results

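The nuclear pore and its transport factors were followed from the mouse oocyte to the 8-cell embryo through 42 of the 41300 genes in the table. They were taken by name alone: symbols beginning with Nup and a digit, Kpna or Kpnb, Ipo and a digit, or Xpo, plus Ran, with pseudogene names left out. The name rule itself used no expression value, but the genes were chosen with earlier results of these data known. By role they were 6 outer ring, 5 inner ring, 3 central channel, 3 cytoplasmic face, 2 nuclear basket and 2 membrane-anchored nucleoporins, 6 importin alphas, 8 importin beta family members, 6 exportins and the GTPase Ran. All 42 had counts in at least some libraries.

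The study profiled single MII oocytes and whole single embryos of the C57BL/6 strain by SMART-Seq of polyA RNA, in wildtype (labelled m+/p-) and Kdm4a knockout (m-/p-) groups. Kdm4a encodes a histone lysine demethylase. Oocytes were unfertilised. Embryos had 2 cells at 1.5 days, 4 cells at 2.5 days and 8 cells at 3.5 days after fertilisation, by the labels. Sperm of Kdm4a knockout males fertilised the oocytes of both genotypes, so both embryo groups lacked a paternal Kdm4a copy and differed in what the mother supplied. Embryos of both genotypes were taken when the control embryos had reached the stage, after removal of the zona pellucida. How the allele was made, and which mothers gave the oocytes, the sources used here leave unstated, so p-values measure the spread between single oocytes or embryos. Each of the 8 groups had 16 libraries, except that 1 knockout 8-cell library (replicate 4) with 419 counts was left out, which leaves 15.

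The nuclear pore complex is the channel through which proteins and RNA cross the nuclear envelope. Outer ring and inner ring nucleoporins form its scaffold, channel nucleoporins line the passage with flexible repeats, and the cytoplasmic and basket nucleoporins serve as docking sites. Importin alphas are adaptors that bind classical nuclear localisation signals and pair with importin beta (Kpnb1), while other importins bind cargo directly. Exportins carry cargo out together with Ran bound to GTP, and GTP-bound Ran unloads importins inside the nucleus. Oocytes store transcripts made during growth. In the mouse most of these are lost and the embryo's own genome is switched on around the 2-cell stage, so the transport machinery passes from a maternal to an embryonic supply within these stages.

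Levels are given as counts per 1000000 gene counts of a library (CPM), and 3 values joined in a sentence are the lowest, the median and the highest of a group. Library totals of the 127 libraries kept ran from 528377 to 4657857 counts, with a median of 2130015. The 8 oocyte markers had a median summed level of 11568 CPM in wildtype oocytes, 6267 CPM in 2-cell, 61.8 CPM in 4-cell and 23.5 CPM in 8-cell wildtype embryos. Markers of the 2-cell embryo (Zscan4c, Zscan4d, Zscan4f, Tdpoz1 and Usp17lc) had their highest summed level in 2-cell embryos. The 6 markers of the 8-cell embryo were low even there, at 13.2 to 83.9 CPM summed, and Cdx2 was at 0 in all 16 wildtype 8-cell libraries. The 9 cumulus and granulosa cell markers summed to a median of 97.7 CPM (72.8 to 123) in wildtype oocytes, 48.0 CPM in 2-cell, 128 CPM (88.9 to 226) in 4-cell and 91.9 CPM in 8-cell wildtype embryos. Cyp19a1, at a mean of 88.2 CPM in wildtype oocytes, and Nr5a2, at a mean of 138 CPM in wildtype 4-cell embryos, made up most of these sums, and Amh was at 0 in all groups. The part of these markers in the results was not tested. The 5 sperm markers summed to at most 7.66 CPM. Kdm4a itself was lower in knockout oocytes and 2-cell embryos (log2 fold change -3.0, SE 0.24, adjusted p = 5.0e-11; log2 fold change -2.42, SE 0.30, adjusted p = 3.3e-07). At the 4-cell and 8-cell stages it was too low to be tested, with medians of 3.36 and 1.59 CPM in wildtype and 1.36 and 1.08 CPM in knockout embryos. Each library holds all cells of its oocyte or embryo, so fewer expressing cells and less RNA per cell cannot be told apart.

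Some libraries stood apart. Knockout 8-cell replicate 7 lay outside the range of the other libraries of its group for 31 of the 42 genes (25 below, 6 above). Its oocyte markers summed to 2925 CPM, beside 16.2 to 128 CPM in the other 14. Bmp15 (1735 CPM), Oosp1 (900 CPM) and Zp2 (236 CPM) made up most of that sum. No knockout 8-cell library exceeded 40.4 CPM of Ooep, 18.9 of Zp3, 8.18 of Gdf9, 2.89 of Zp1 or 1.12 of Mos. The wildtype oocyte means of these genes were 214, 16.2, 1032, 11.6 and 71.0 CPM. Knockout oocyte replicate 15 lay outside for 19 genes, and its oocyte markers summed to 2634 CPM beside 11735 to 16286 CPM. Wildtype 2-cell replicate 3 lay outside for 19 genes, 16 of them above, and knockout 2-cell replicate 13, the library of lowest total, for 12. The counts of members called between genotypes are also given without these libraries.

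Promoter sequences are shown for 5 genes that carry the main patterns below: Kpna2 and Xpo1, the importin alpha and the exportin with the highest levels after the 2-cell stage, Nup93 and Nup54, which were higher in knockout 2-cell embryos, and Ipo8, a maternal importin that fell. Each is the 250 bases before the RefSeq transcript start (build GRCm38.p6), written 5′ to 3′ on the gene's strand, with matches to 6 searched motifs in capitals. The motifs, searched on both strands, were the CCAAT box, the GC box GGGCGG, the ETS site CCGGAAG, the core TTTGAA of the cell-cycle homology element, the E-box CACGTG and the TATA box TATAAA. The windows are at chr11:106999526-106999775 on the minus strand for Kpna2, chr8:94214314-94214563 on the plus strand for Nup93, chr5:92435200-92435449 on the minus strand for Nup54, chr11:23255791-23256040 on the plus strand for Xpo1 and chr6:148831468-148831717 on the minus strand for Ipo8.
Kpna2: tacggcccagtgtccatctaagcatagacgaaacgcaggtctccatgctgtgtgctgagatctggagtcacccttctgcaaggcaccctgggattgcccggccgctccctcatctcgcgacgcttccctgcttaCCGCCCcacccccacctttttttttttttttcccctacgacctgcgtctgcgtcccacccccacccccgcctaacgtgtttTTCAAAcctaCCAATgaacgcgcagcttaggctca
Nup93: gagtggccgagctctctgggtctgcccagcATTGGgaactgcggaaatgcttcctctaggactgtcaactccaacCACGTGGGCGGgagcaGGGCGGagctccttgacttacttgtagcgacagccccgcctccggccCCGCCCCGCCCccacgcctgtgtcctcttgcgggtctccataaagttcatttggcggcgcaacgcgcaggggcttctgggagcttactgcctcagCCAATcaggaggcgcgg
Nup54: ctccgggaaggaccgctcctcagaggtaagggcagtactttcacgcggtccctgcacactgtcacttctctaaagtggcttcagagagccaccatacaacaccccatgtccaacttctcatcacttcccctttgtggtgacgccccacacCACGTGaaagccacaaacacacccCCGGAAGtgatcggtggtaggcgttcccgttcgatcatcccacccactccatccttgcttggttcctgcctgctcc
Xpo1: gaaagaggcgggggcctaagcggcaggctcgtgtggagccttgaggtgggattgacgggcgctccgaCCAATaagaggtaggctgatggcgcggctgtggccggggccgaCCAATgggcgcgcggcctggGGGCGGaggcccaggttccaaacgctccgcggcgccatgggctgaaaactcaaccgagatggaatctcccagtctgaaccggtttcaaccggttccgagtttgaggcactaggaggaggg
Ipo8: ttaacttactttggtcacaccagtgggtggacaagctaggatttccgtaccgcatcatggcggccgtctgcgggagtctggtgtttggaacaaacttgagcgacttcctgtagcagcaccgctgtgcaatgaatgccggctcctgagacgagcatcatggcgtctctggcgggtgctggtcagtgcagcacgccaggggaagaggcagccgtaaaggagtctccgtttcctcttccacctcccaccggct
Kpna2 held 1 CCAAT box, 1 GC box and 1 TTTGAA match. Nup93 held 2 CCAAT boxes, 4 GC boxes and 1 E-box that overlaps a GC box. Xpo1 held 2 CCAAT boxes and 1 GC box, Nup54 an ETS site and an E-box, and the Ipo8 window none of the 6 motifs. A RefSeq window was given for 33 of the 42 genes, 29 of them within 50 bases of the gene start in the table. The GC box was in 23 of the 33 and in 32.7% of all 32851 windows. The CCAAT box was in 17 of the 33 and in 33.8% of all windows. The E-box was in 6 (6.02% of all windows), TTTGAA in 6 (16.0%), the ETS site in 5 (6.91%) and TATAAA in 2 (12.4%). These are matches of letters and not evidence of binding.

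Levels spanned a wide range, and the leading genes changed with the stage. Per kilobase of exon, the scale on which genes can be compared with each other, Nup35, an inner ring nucleoporin that contacts the membrane, led in wildtype oocytes at 818 ± 101 CPM per kilobase (SD, n = 16), ahead of the outer ring gene Nup37 at 559 ± 52.2. In wildtype 2-cell embryos Kpna2 led at 448 ± 108 CPM per kilobase (SD, n = 16), and the next 2 genes, Nup37 at 284 ± 113 and Kpna3 at 277 ± 41.6, were within each other's SD. Kpna2 and Ran led in wildtype 4-cell embryos at 1512 ± 253 and 476 ± 65.5 CPM per kilobase (SD, n = 16). The same 2 genes led at the 8-cell stage at 1205 ± 269 and 465 ± 75.3. By wildtype mean CPM, 10 of the 42 genes were highest in oocytes, 9 at the 2-cell, 15 at the 4-cell and 8 at the 8-cell stage. At the low end Nup210, a membrane-anchored nucleoporin, and Ipo13, an importin that also exports, did not exceed 2.04 and 5.10 CPM in any library.

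**Figure D1:**
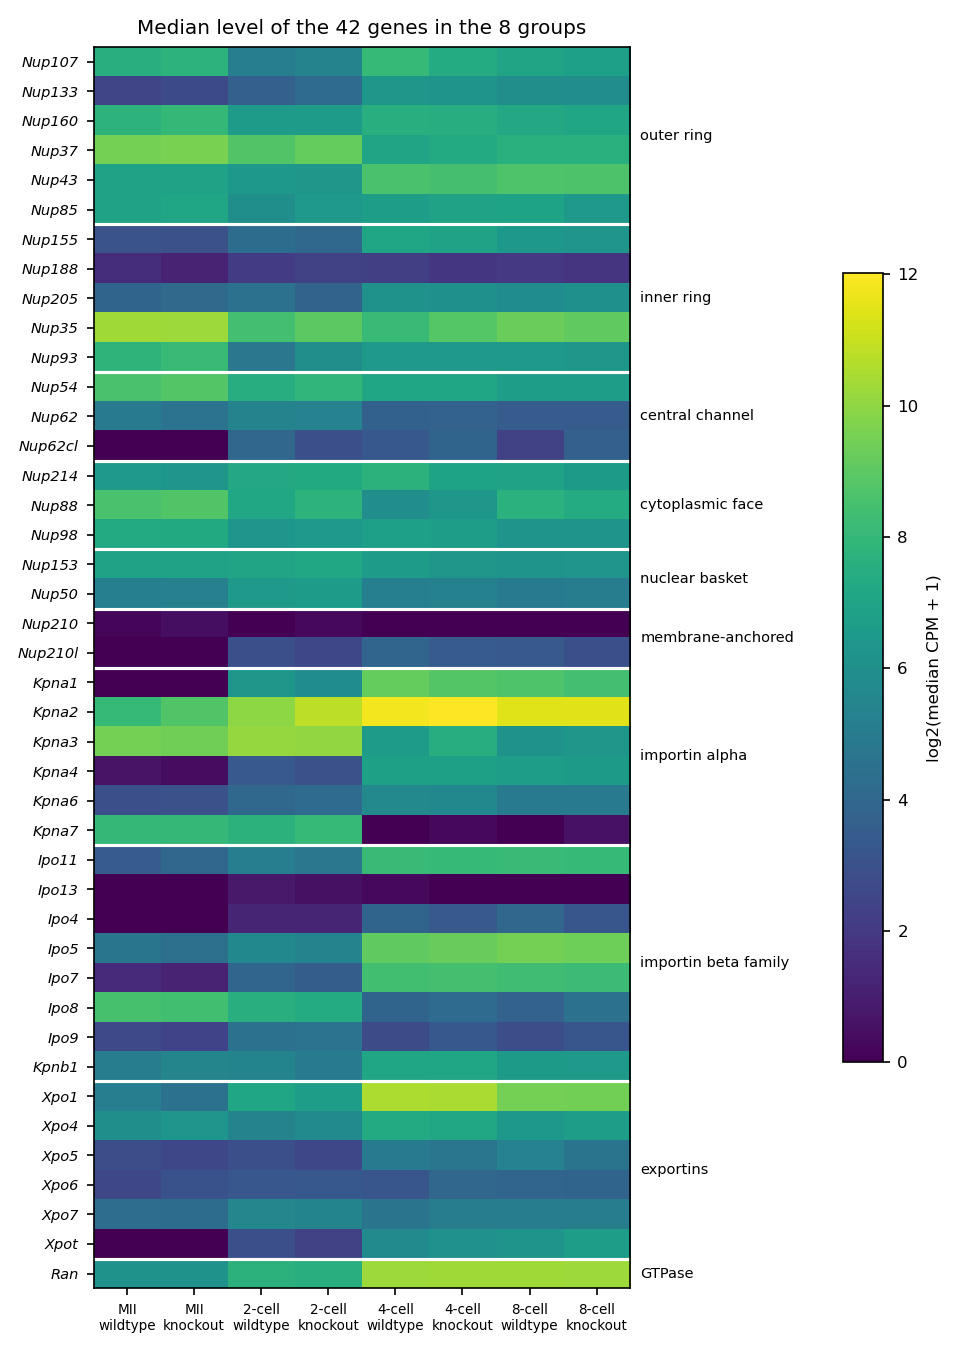
Median CPM of each of the 42 genes (rows, ordered by role) in the 8 groups of stage and genotype (columns), coloured as log2(median CPM + 1). Nup35 and Nup37 are brightest in oocytes, Kpna2, Ran and Xpo1 at the 4-cell and 8-cell stages, and the 2 genotypes of a stage look much alike.

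Together the 42 genes took 0.605% ± 0.0313 of the counts in wildtype oocytes (SD, n = 16) and 0.537% ± 0.0378 in wildtype 2-cell embryos. Their share was 1.14% ± 0.0929 in 4-cell and 0.977% ± 0.117 in 8-cell wildtype embryos. In the knockout groups the shares were 0.640% ± 0.0268, 0.655% ± 0.0867, 1.20% ± 0.118 and 0.919% ± 0.222 (SD, n = 16, and 15 at the last stage). These sums are given without a test. They are dominated by a few genes: the largest single contribution at the later stages was that of Kpna2, at a median of 3558 CPM in wildtype 4-cell embryos.

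From the wildtype oocyte to the 2-cell embryo, most of the nucleoporin transcripts that changed were lower, and most of the transport receptor transcripts that changed were higher. A change was called when the Benjamini-Hochberg adjusted p of edgeR's quasi-likelihood test was under 0.05 and the log2 fold change was at least 1 in either direction. Of 39 genes tested, 13 were higher and 10 lower in 2-cell embryos, and among all genes tested 51.1% were called (31.9% higher and 19.2% lower). Among the 20 nucleoporins tested 2 were higher and 9 lower. Among the 19 receptors and Ran 11 were higher and 1 lower. The median log2 fold change was 0.34 over the tested members and 0.21 over all genes. Relative log expression factors instead of trimmed mean of M-values (TMM) factors moved the median of all genes by 0.12 at this step and by -0.27 at the next.

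The 3 largest falls were those of ring genes. Nup93, the inner ring scaffold, lay at 165, 227 and 296 CPM in wildtype oocytes and at 2.18, 26.1 and 64.9 CPM in 2-cell embryos, so every 2-cell embryo was below every oocyte (log2 fold change -3.30, SE 0.24, adjusted p = 4.6e-20). Nup107, a core of the outer ring Y complex, went from 138, 183 and 229 CPM to 12.2, 33.8 and 64.2 CPM, again without overlap (log2 fold change -2.80, SE 0.17, adjusted p = 1.3e-23). Nup35 fell from 982, 1255 and 1501 CPM to 260.2, 339.5 and 470.4 CPM (log2 fold change -2.26, SE 0.10, adjusted p = 9.9e-32). The ranges of Nup35 did not overlap, although even after the fall its level stayed among the highest of the nucleoporins. Nup160 of the outer ring (-1.52), Nup88 of the cytoplasmic face (-1.69), Nup54 of the channel (-1.67), Nup85 (-1.48), Nup37 (-1.38) and Nup98 (-1.21, log2 fold changes) also fell. The nucleoporin genes Nup133, Nup43, Nup155, Nup188, Nup205, Nup62, Nup214, Nup50 and Nup153 were not called at this step.

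Among the transport factors, Xpo1 (CRM1), which exports proteins with leucine-rich signals, rose from 18.6, 34.0 and 48.9 CPM in wildtype oocytes to 74.0, 131 and 245 CPM in 2-cell embryos (log2 fold change 1.73, SE 0.18, adjusted p = 1.3e-13). Ran rose from 51.6, 72.0 and 93.7 CPM to 143, 209.7 and 229.7 CPM (log2 fold change 1.04, SE 0.12, adjusted p = 2.1e-12). Neither gene had overlapping ranges. Kpna2 rose from 104, 268 and 322 CPM to 551, 1021 and 1409.6 CPM (log2 fold change 1.72, SE 0.15, adjusted p = 3.7e-16), and all 16 embryos were above the highest oocyte. Ipo7, which imports ribosomal proteins and histones among other cargo, rose (log2 fold change 2.92, SE 0.43, adjusted p = 6.9e-09), as did Ipo9, a carrier of histones, by 1.76 and Ipo11 by 1.42 on the log2 scale. Ipo8, a relative of Ipo7, was the receptor that fell, from 282, 369 and 491 CPM to 115, 182 and 339.6 CPM (log2 fold change -1.43, SE 0.11, adjusted p = 8.9e-20), with ranges that overlapped only between the lowest oocytes and the highest embryos.

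Several genes were almost without counts in oocytes and detected in 2-cell embryos. Kpna1, an importin alpha, had 3 counts in all 16 wildtype oocytes and 2972 in the 2-cell embryos, a ratio of 1510.3-fold (95% interval 516 to 7328) after scaling by library totals, where the interval covers counting error only. The 4 counts of Xpot, the tRNA exportin, became 257, a ratio of 98.0-fold (95% interval 37.8 to 362). Nup62cl, a relative of the channel gene Nup62, went from 4 to 1193 counts, a ratio of 455-fold (95% interval 177 to 1672), yet 3 of the 16 wildtype 2-cell embryos had none. Nup210l, a relative of Nup210, rose 70.6-fold (95% interval 32.0 to 194), and Kpna4, an importin alpha, 21.2-fold (95% interval 14.8 to 31.4). In knockout oocytes Kpna1 was at 0 in all 16 libraries, beside 1751 counts in the knockout 2-cell embryos. The lower end of the 95% interval of that ratio was 756-fold, again for counting error only. Of the 42 genes, 16 had wildtype ranges that did not overlap between these stages, beside 20.1% of all genes with a mean of at least 1 CPM.

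From the 2-cell to the 4-cell stage 14 of the 20 transport receptors and Ran tested were higher and 5 lower, while the median of all genes was lower. Of 40 genes tested in wildtype embryos 20 were higher and 10 lower, and among all genes tested 74.4% were called (30.5% higher and 43.9% lower). The median log2 fold change was 1.04 over the tested members and -0.48 over all genes. Nucleoporins split into 6 higher (Nup107, Nup133, Nup43, Nup155, Nup205 and Nup93) and 5 lower (Nup37, Nup50, Nup62, Nup62cl and Nup88).

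Xpo1 rose again, to 864, 1499 and 2253 CPM in wildtype 4-cell embryos (log2 fold change 3.13, SE 0.15, adjusted p = 2.8e-29), and Ran to 941, 1209 and 1524 CPM (log2 fold change 2.36, SE 0.11, adjusted p = 1.1e-30). In both genes every 4-cell embryo was above every 2-cell embryo. Ipo7 went from 3.39, 14.3 and 59.7 CPM to 138, 329 and 429 CPM (log2 fold change 3.68, SE 0.28, adjusted p = 3.7e-19), and Ipo5, an importin of ribosomal proteins and histones, from 30.2, 47.8 and 129.8 CPM to 223, 547 and 913 CPM (log2 fold change 3.04, SE 0.18, adjusted p = 9.7e-25). Both were without overlap. Kpna4 rose by 2.86, Ipo4 by 2.79, Xpot by 2.64, Ipo11 by 2.57, Xpo5, the exporter of microRNA precursors, by 1.90, and Kpnb1, the partner of the importin alphas, by 1.30 on the log2 scale. Kpna1, Xpo4, Kpna6 and Kpna2 rose by 2.47, 1.54, 1.50 and 1.47.

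Nup107, which had fallen after the oocyte stage, rose from 12.2, 33.8 and 64.2 CPM to 172, 265 and 408 CPM (log2 fold change 2.59, SE 0.19, adjusted p = 3.0e-20). Its 4-cell levels were again in or above the range of the oocytes. Nup93 rose to 58.9, 89.9 and 139 CPM (log2 fold change 1.35, SE 0.26, adjusted p = 3.6e-06) and stayed below every wildtype oocyte. Nup155 of the inner ring rose by 2.49, Nup133 of the outer ring by 2.25, Nup43 by 1.80 and Nup205 by 1.39 on the log2 scale. In the other direction Nup62, a core of the channel, fell from 29.0, 40.6 and 115 CPM to 5.08, 12.1 and 34.4 CPM (log2 fold change -2.13, SE 0.23, adjusted p = 3.9e-13), and Nup50, which helps release importin alpha cargo at the basket, changed by -1.64. Nup37 and Nup88 were lower for the second step in succession, at -1.77 and -1.59. In these 4 genes the ranges of the 2 stages overlapped, with every 4-cell embryo below the 2-cell median.

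Among the 5 receptors that fell at this step, Kpna3 went from 795, 1099 and 1391 CPM to 45.5, 99.2 and 217 CPM (log2 fold change -3.64, SE 0.15, adjusted p = 3.6e-32) and Ipo8 to 4.04, 13.8 and 41.0 CPM (log2 fold change -3.82, SE 0.23, adjusted p = 4.8e-24), both without overlap. Kpna7, an importin alpha known for its expression in oocytes and early embryos, had 6804 counts in the 16 wildtype 2-cell embryos and 29 in the 4-cell embryos, a ratio of 228-fold (95% interval 159 to 341). It was at 0 in 10 of the 16 wildtype 4-cell embryos. Ipo9 and Xpo7, an exportin with a broad cargo range, changed by -2.06 and -1.36 on the log2 scale, after both had risen at the step before. At this step 16 of the 42 genes had ranges without overlap, beside 28.5% of all genes with a mean of at least 1 CPM.

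From the 4-cell to the 8-cell stage few of the genes changed. Of 39 tested in wildtype embryos 3 were higher and none lower by edgeR with the minimum fold, beside 20.6% of all genes tested (9.32% higher and 11.3% lower). Without the minimum fold 9 were called, 4 higher and 5 lower, beside 36.5% of all genes. Nup88 rose from 11.9, 58.4 and 129 CPM to 149, 206 and 315 CPM (log2 fold change 1.84, SE 0.23, adjusted p = 1.3e-08), so that all 8-cell embryos were above all 4-cell embryos and their median was back within the range of the 2-cell stage. It was the 1 gene without overlap at this step, beside 0.894% of all genes. Nup35 rose from 139, 274 and 393 CPM to 330.0, 629 and 835 CPM (log2 fold change 1.16, SE 0.15, adjusted p = 1.7e-08), and Xpo6, the exporter of actin with profilin, from 2.33, 8.22 and 20.2 CPM to 3.6, 14 and 48.2 CPM (log2 fold change 1.01, SE 0.29, adjusted p = 0.0053).

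The importin alphas replaced one another over these stages. Per kilobase, Kpna3 made up 47.4% ± 6.48 of importin alpha transcript in wildtype oocytes (SD, n = 16), Kpna7 26.3% ± 2.92 and Kpna2 26.0% ± 6.72. In wildtype 2-cell embryos Kpna2 made up 53.5% ± 6.4, Kpna3 34.1% ± 6.90 and Kpna7 9.72% ± 2.85 (SD, n = 16). At the 4-cell stage Kpna2 took 89.7% ± 3.20 and Kpna1 7.19% ± 2.62, and at the 8-cell stage 90.8% ± 2.12 and 6.34% ± 1.66. Kpna4 and Kpna6 stayed below 2% of the total in every wildtype library. In knockout oocytes Kpna2 came first at 41.4% ± 7.22, ahead of Kpna3 at 37.1% ± 9.09 (SD, n = 16), and the SDs of the 2 overlapped. Kpna2 made up 66.3% ± 5.02 in knockout 2-cell embryos. In knockout 8-cell embryos the median share of Kpna2 was 90.5%, with 4.75% in replicate 7, where Kpna3 made up 94.0%. Most Kpna2 values (89.0% of those above 0) were not whole numbers, as when reads that match several copies are divided among them, so its level is uncertain to that extent, as are those of Ran (80.5%), Nup35 (74.8%), Xpo4 (71.7%) and Nup153 (59.8%).

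**Figure D2:**
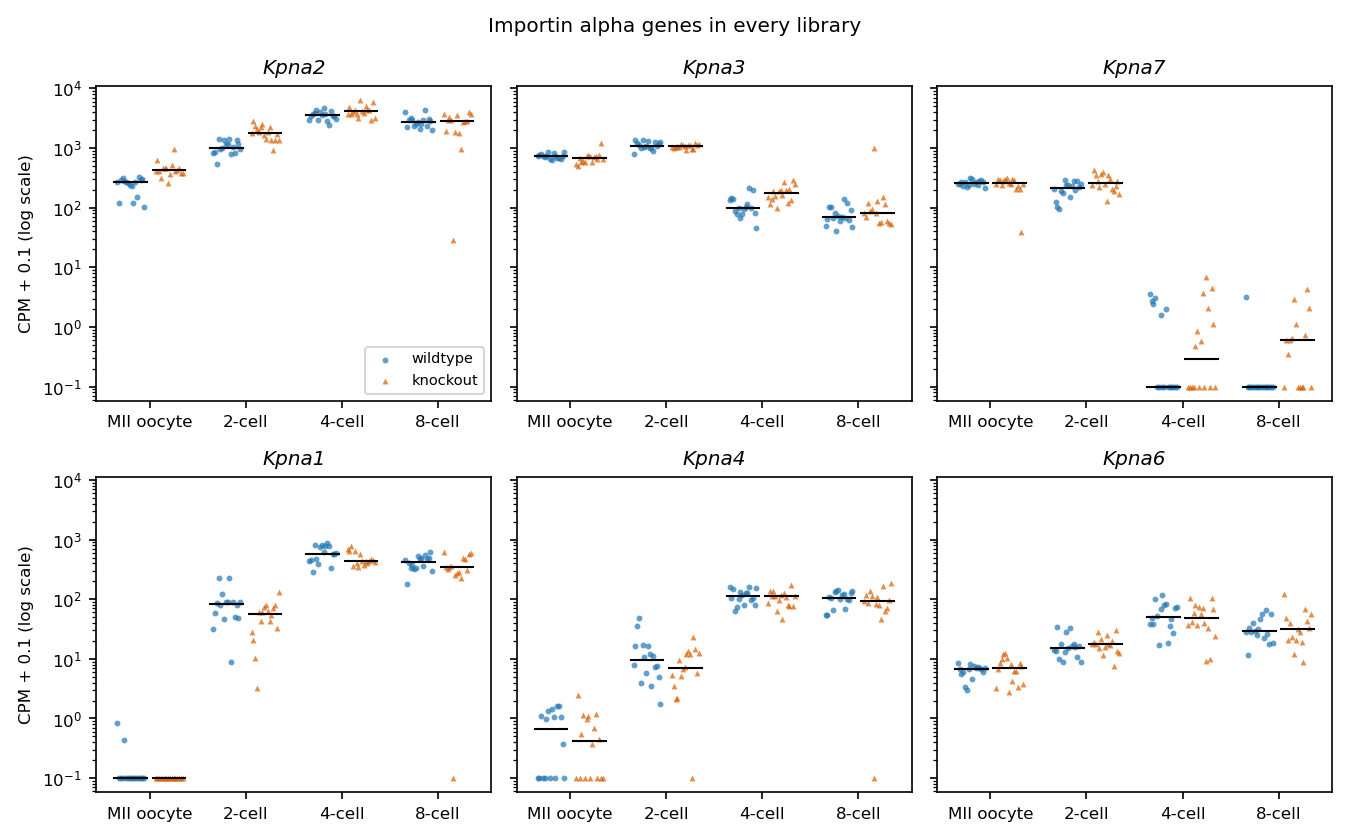
CPM + 0.1 on a log axis of the 6 importin alphas in each library, by stage and genotype, with a bar at the group median. Kpna7 and Kpna3 are high in oocytes and 2-cell embryos and low afterwards, Kpna1 and Kpna4 show the opposite order, and 1 knockout 8-cell library (replicate 7) stands at 989 CPM of Kpna3 and 28.9 CPM of Kpna2.

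The same steps were tested within the knockout groups. From oocyte to 2-cell embryo 23 genes were called in wildtype, 21 in knockout and 18 in both, in the knockout beside 49.2% of all genes tested (30.6% higher and 18.6% lower). From 2-cell to 4-cell the counts were 30, 27 and 26, beside 75% (32.6% higher and 42.4% lower), and from 4-cell to 8-cell 3, 2 and 1, beside 12% (8.09% higher and 3.88% lower). No gene was called in opposite directions. Genes called in 1 genotype alone included Nup50, with a log2 fold change of 1.11 in knockout and 0.98 in wildtype from oocyte to 2-cell embryo, and Nup85, with -0.64 and -1.48. A call in 1 genotype alone does not show that the genotypes differ, and the tests of that difference are given further on.

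In oocytes the genotypes differed in 2 of 32 members tested, beside 12% of all genes tested (5.27% higher and 6.69% lower in knockout; adjusted p under 0.05 with no minimum fold). Kpna2 was higher in knockout oocytes. It lay at 104, 268 and 322 CPM in wildtype and at 261, 425 and 968 CPM in knockout oocytes (log2 fold change 0.95, SE 0.16, adjusted p = 7.3e-05). The ranges overlapped between the lowest knockout and the highest wildtype values, and 15 of 16 knockout oocytes were above the wildtype median. Nup62 was lower, at 22.1, 30.4 and 43.8 CPM in wildtype and 12.8, 22.9 and 33.2 CPM in knockout oocytes (log2 fold change -0.41, SE 0.11, adjusted p = 0.016), and 15 of 16 knockout oocytes lay below the wildtype median. The Kpna2 call held in all 7 alternatives over the whole set of replicates, and Nup62 was not called without a filter on low counts (adjusted p = 0.070).

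Knockout oocyte replicate 15, the library with few oocyte marker counts, bore on this comparison. Without it 7 members were called, 5 higher and 2 lower, beside 19.6% of all genes tested. Kpnb1 (log2 fold change 0.34, adjusted p = 0.022), Nup107 (log2 fold change 0.29, adjusted p = 0.0061), Nup160 (log2 fold change 0.28, adjusted p = 0.022) and Nup93 (log2 fold change 0.22, adjusted p = 0.042) were then higher in knockout. Xpo1 was then lower (log2 fold change -0.49, adjusted p = 0.0064), beside Kpna2 and Nup62. Replicate 15 had 81.4 CPM of Xpo1 where the other knockout oocytes had 17.6 to 32.9 CPM, and 2.98 CPM of Kpnb1 where they had 30.6 to 65.9 CPM. The 10 members not tested in oocytes for low counts were Xpot, Ipo4, Ipo7, Ipo13, Kpna1, Kpna4, Nup188, Nup210, Nup210l and Nup62cl.

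**Figure D3:**
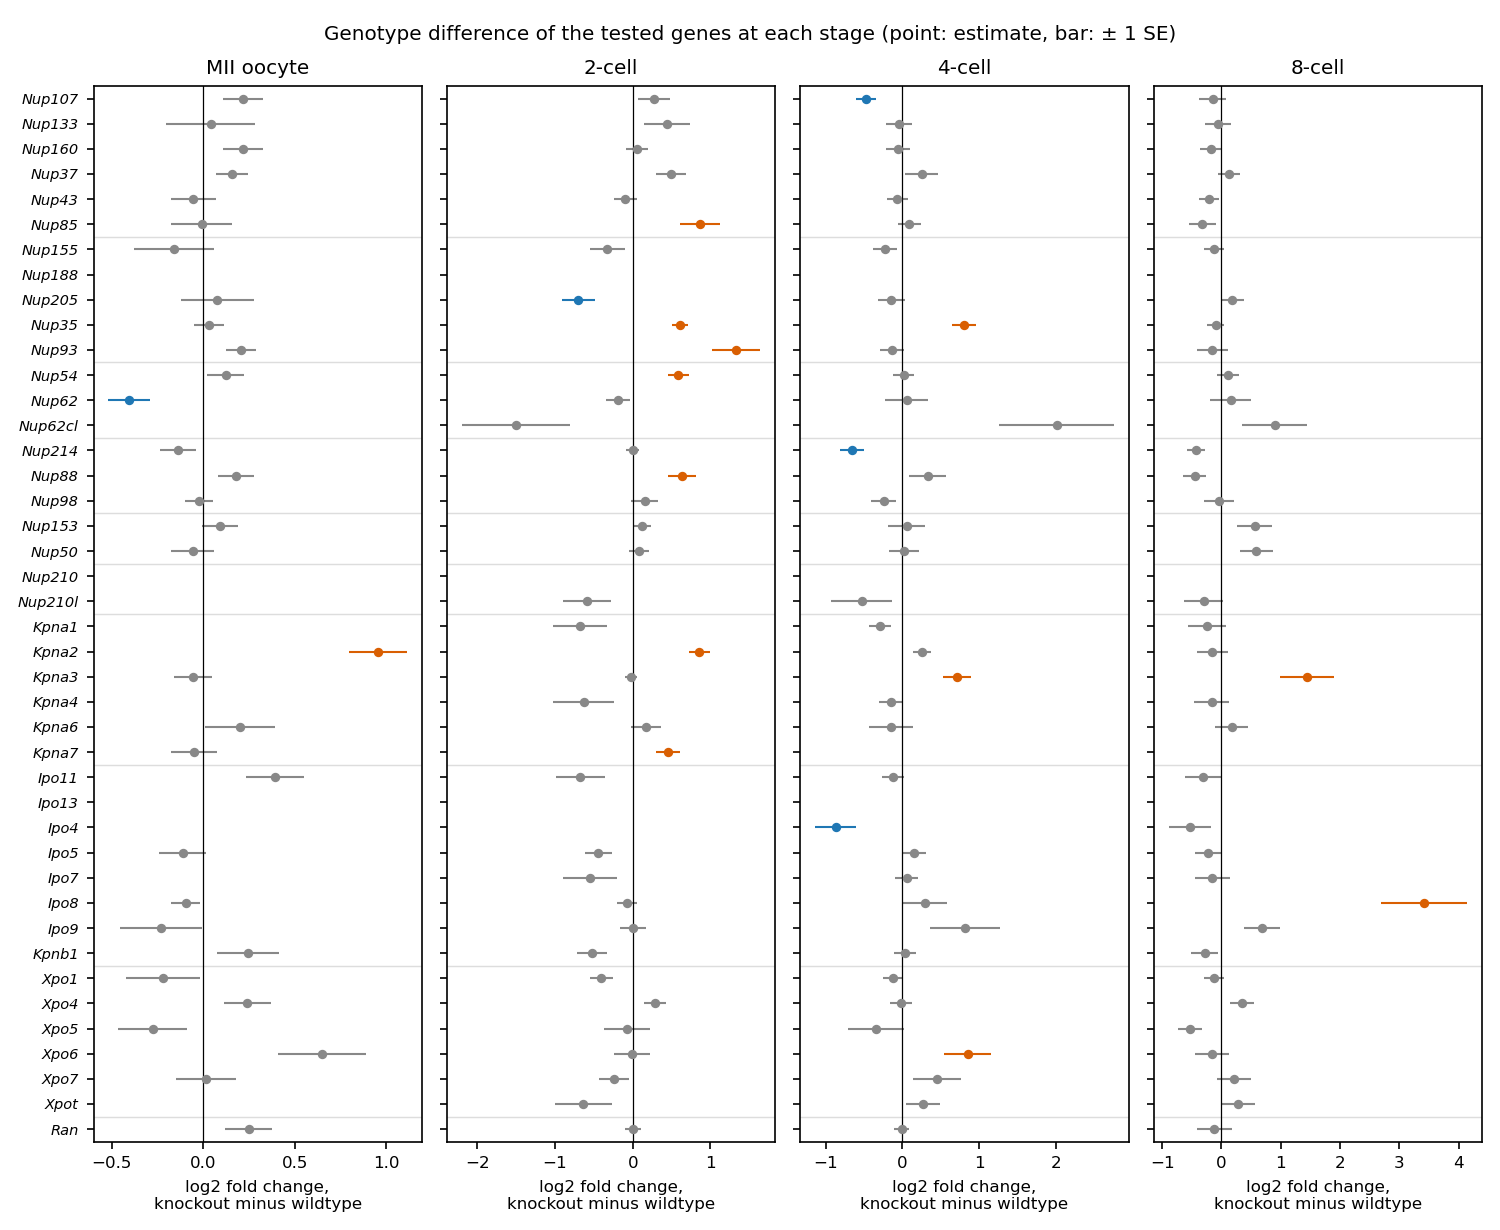
Log2 fold change of knockout over wildtype with 1 SE for each member tested, in a panel for each of the 4 stages, each with its own horizontal scale. Orange marks genes called higher in knockout, blue genes called lower and grey genes not called; Kpna2 stands out in oocytes, Nup93 at the 2-cell stage and Ipo8, with a wide SE, at the 8-cell stage.

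At the 2-cell stage 8 of 38 members tested differed, 7 higher and 1 lower in knockout, beside 17.3% of all genes tested (7.25% higher and 10% lower). The genes higher in knockout were Nup93, Nup35, Nup85, Nup88, Nup54, Kpna2 and Kpna7. The nucleoporins among these 7 had been called lower from oocyte to 2-cell embryo in wildtype, Kpna2 had been called higher, and Kpna7 had not been called. At that step 9 nucleoporins in all were called lower, 2 higher and 9 not called. Both sets of calls rest on the same wildtype 2-cell libraries, where low values favour both, so the overlap is partly built in. The matching share among all genes higher in knockout was not computed. The gene lower in knockout was Nup205, an inner ring scaffold.

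Nup93 had the largest difference. Wildtype 2-cell embryos held 2.18, 26.1 and 64.9 CPM and knockout embryos 30.8, 61.3 and 176 CPM (log2 fold change 1.33, SE 0.31, adjusted p = 0.0038), so that all 16 knockout embryos were above the wildtype median. Nup35 lay at 260.2, 339.5 and 470.4 CPM and 356, 513 and 631 CPM (log2 fold change 0.61, SE 0.10, adjusted p = 6.7e-05), likewise with all 16 above the wildtype median. Both genes had overlapping ranges. Kpna2 lay at 551, 1021 and 1409.6 CPM in wildtype and 946, 1818 and 2867 CPM in knockout (log2 fold change 0.86, SE 0.13, adjusted p = 1.9e-05), and 15 of 16 knockout embryos lay above the wildtype median. Nup54, a partner of Nup62 in the channel, lay at 89.9, 176 and 236 CPM and 157, 241 and 282 CPM (log2 fold change 0.59, SE 0.13, adjusted p = 0.0023), with 14 of 16 above it.

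Nup85, an outer ring gene, lay at 16.6, 62.1 and 106 CPM and 51.7, 90.9 and 204 CPM (log2 fold change 0.86, SE 0.25, adjusted p = 0.017), with 12 of 16 above the wildtype median. Nup88, which anchors Nup214 at the cytoplasmic face, lay at 78.6, 143 and 264 CPM and 126, 216 and 384 CPM (log2 fold change 0.63, SE 0.18, adjusted p = 0.015), with 13 above. For Kpna7 the values were 96.4, 214 and 291 CPM and 129, 262 and 426 CPM (log2 fold change 0.45, SE 0.16, adjusted p = 0.043), with 12 above, and the call was lost without a filter on low counts and without wildtype replicate 3 (log2 fold change 0.40, adjusted p = 0.063). Nup205 lay at 6.78, 22.3 and 47.2 CPM in wildtype and 6.95, 13.3 and 27.4 CPM in knockout (log2 fold change -0.70, SE 0.21, adjusted p = 0.019), and 14 of 16 knockout embryos lay below the wildtype median. No gene of the 42 had genotype ranges without overlap at any stage, beside 0.260%, 0.172%, 0.107% and 0.00% of all genes tested in oocytes and at the 2-cell, 4-cell and 8-cell stages.

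The counts differed between the lower and the higher replicate numbers. Among replicates 1 to 8 alone 9 members were called, these 8 included, with log2 fold changes of up to 2.03, beside 15.6% of all genes. Among replicates 9 to 16 none was called by edgeR, beside 1.63% of all genes, and 6 members had an unadjusted p under 0.05. There Kpna2 had a log2 fold change of 0.52 (SE 0.15), Nup35 of 0.47 (SE 0.15) and Nup54 of 0.45 (SE 0.18). All 8 genes had the same sign in both sets, and Kpna7 was at a log2 fold change of 0.01 in replicates 9 to 16. They had been called in the fit of both sets together, which favours a shared sign, so this is no separate support. Whether the 2 sets of replicates differ was not tested. The labels mention strips of 8 tubes without saying which libraries shared one. The summed level of the 5 markers of the 2-cell embryo also differed between the groups, at 644, 1625 and 3445 CPM in wildtype and 118, 484 and 2476 CPM in knockout 2-cell embryos, with all 5 markers detected in both. Its part in these results was not tested.

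**Figure D4:**
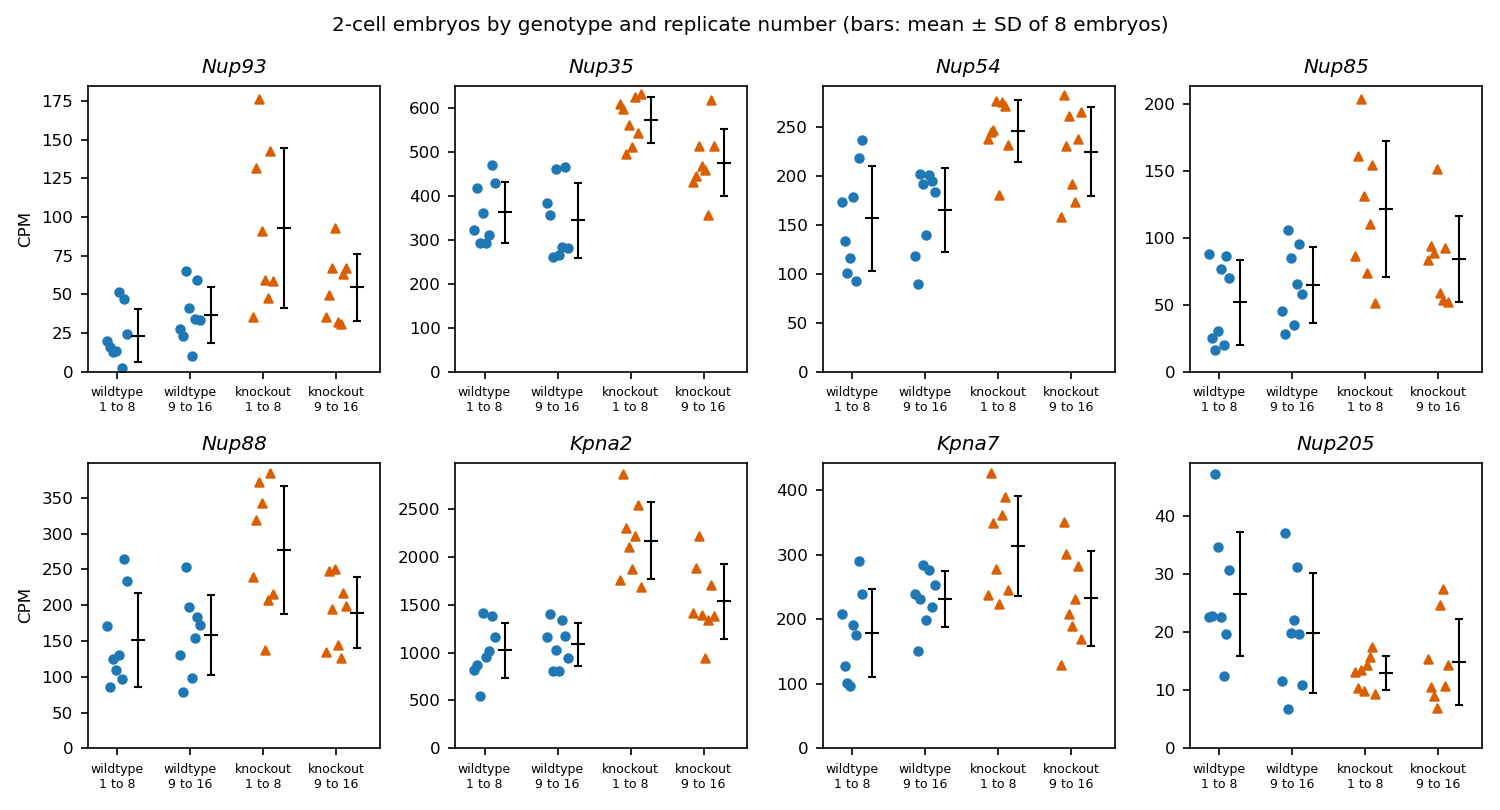
CPM of the 8 members called at the 2-cell stage in each embryo, split by genotype and by replicates 1 to 8 and 9 to 16, with the mean and SD of 8 embryos. The knockout points of Nup93, Nup35, Nup54, Nup85, Nup88, Kpna2 and Kpna7 sit higher than the wildtype points among replicates 1 to 8 and mix more with them among replicates 9 to 16.

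At the 4-cell stage 6 of 38 members differed, 3 higher and 3 lower in knockout, beside 16.4% of all genes tested (8.97% higher and 7.46% lower). Nup35 was again higher, at 139, 274 and 393 CPM in wildtype and 250.2, 461 and 1026 CPM in knockout embryos (log2 fold change 0.80, SE 0.16, adjusted p = 7.0e-04). Kpna3 lay at 45.5, 99.2 and 217 CPM and 98.5, 177 and 292 CPM (log2 fold change 0.71, SE 0.18, adjusted p = 0.0071). For each of these genes 15 of 16 knockout embryos were above the wildtype median. Xpo6 lay at 2.33, 8.22 and 20.2 CPM and 6.00, 14.6 and 36.9 CPM (log2 fold change 0.85, SE 0.31, adjusted p = 0.050), just past the threshold, and was not called without a filter on low counts or with depth as a covariate.

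Nup214, the large repeat nucleoporin of the cytoplasmic face, was lower, at 129.7, 212 and 350.2 CPM in wildtype and 85.9, 124 and 275 CPM in knockout embryos (log2 fold change -0.66, SE 0.16, adjusted p = 0.0035), and 15 of 16 knockout embryos lay below the wildtype median. Nup107 lay at 172, 265 and 408 CPM and 124, 165 and 298 CPM (log2 fold change -0.47, SE 0.13, adjusted p = 0.011), with 14 below. Ipo4, an importin of histones, lay at 2.82, 13.7 and 28.4 CPM and 2.84, 9.22 and 17.2 CPM (log2 fold change -0.87, SE 0.27, adjusted p = 0.021), with 14 below, and was not called without a filter on low counts. All 6 genes had overlapping ranges. Among replicates 1 to 8 none was called by edgeR (5 members at an unadjusted p under 0.05), beside 1.86% of all genes. Among replicates 9 to 16 3 members were, 2 of them among these 6, beside 5.70% of all genes. All 6 genes kept their sign in both sets, which their call in the fit of both sets together favours. Oocyte markers had a median summed level of 124 CPM in knockout and 61.8 CPM in wildtype 4-cell embryos, and their part in these differences was not tested.

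At the 8-cell stage 2 of 38 members differed, Ipo8 and Kpna3, both higher in knockout, beside 11.6% of all genes tested (8.55% higher and 3.02% lower). Ipo8 lay at 1.13, 12.7 and 25.2 CPM in wildtype and 9.44, 22.4 and 851 CPM in knockout embryos (log2 fold change 3.42, SE 0.72, adjusted p = 0.0036), and Kpna3 at 41.3, 68.6 and 139 CPM and 52.9, 82.2 and 989 CPM (log2 fold change 1.45, SE 0.46, adjusted p = 0.033). The highest knockout value of both was that of replicate 7. Without it Ipo8 was still called (log2 fold change 0.91, adjusted p = 0.026) and Kpna3 was not (log2 fold change 0.14, adjusted p = 0.66), beside 12.4% of all genes. With a replicate block Ipo8 was not called (edgeR adjusted p = 0.258), beside 1.59% of all genes. Ipo8 was called neither among replicates 1 to 8 (log2 fold change 4.27, SE 1.11, edgeR adjusted p = 0.115) nor among replicates 9 to 16 (0.89, SE 0.33, edgeR adjusted p = 0.156). In these sets 0.0138% and 1.62% of all genes were called. No member was lower by edgeR (3 at an unadjusted p under 0.05), while DESeq2 called Ipo8 higher and 2 members, Nup214 and Xpo5, lower. DESeq2 called 4.82% of all genes higher and 3.80% lower.

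Both genes were high in oocytes, and the level of Ipo8 in replicate 7, 851 CPM, was above every oocyte. The same library held 0.962 CPM of Ran and no counts of Ipo7, Ipo11, Kpna1 or Kpna4, genes that rose after the oocyte stage. Its oocyte markers summed to 2925 CPM, mostly from Bmp15, Oosp1 and Zp2, as given above. Some other members that were high in oocytes were low in this library, with Kpna7 at 2.89 CPM and Nup37 at 102 CPM. Knockout oocytes without replicate 15 had 206 to 316 CPM of Kpna7 and 625 to 1069 CPM of Nup37. Ran in this library was also below these oocytes, which had 50.03 to 141 CPM. What sets this library apart was not tested.

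**Figure D5:**
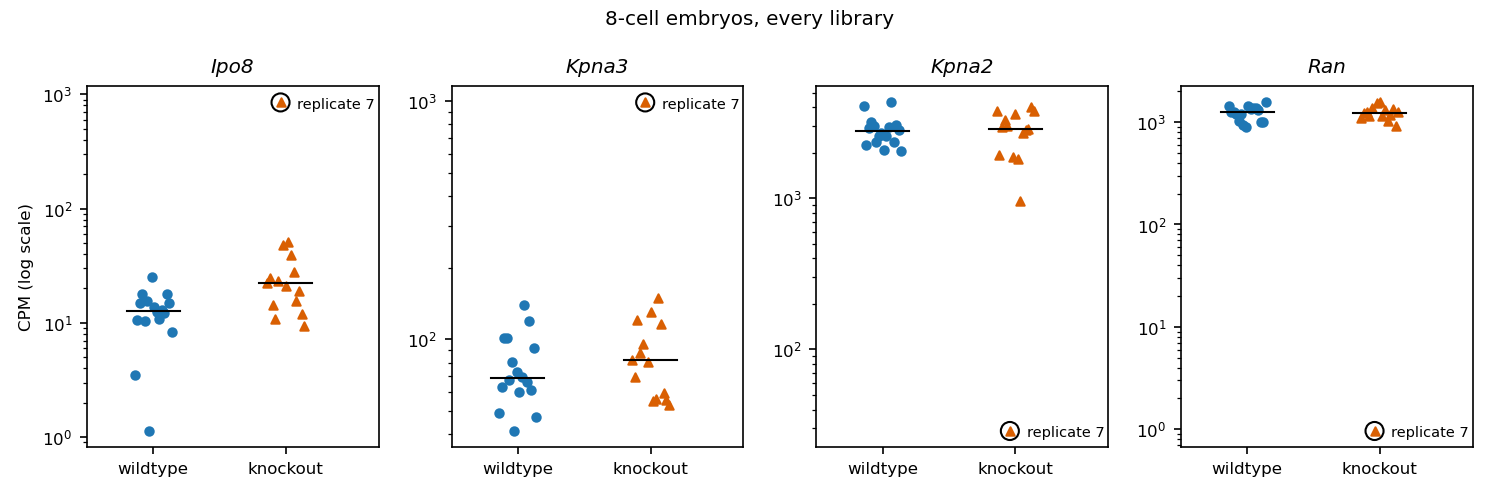
CPM on a log axis of Ipo8, Kpna3, Kpna2 and Ran in each 8-cell library by genotype, with a bar at the median and knockout replicate 7 circled. The circled library is far above the others for Ipo8 and Kpna3 and far below them for Kpna2 and Ran, while the remaining knockout embryos overlap the wildtype embryos in all 4 genes.

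Whether a genotype difference itself changed from one stage to the next was tested as the knockout change minus the wildtype change. From oocyte to 2-cell embryo 2 of the members tested differed in this way, Nup93 and Nup35, beside 3.99% of all genes tested (1.93% higher and 2.06% lower knockout change). From 2-cell to 4-cell embryo 6 did, Nup93, Kpna2, Nup107 and Nup214 with a lower and Kpna3 and Nup62cl with a higher knockout change, beside 15.5% (11.4% higher and 4.03% lower). From 4-cell to 8-cell embryo 2 did, Nup35 and Ipo8, beside 2.73% (2.13% higher and 0.601% lower). Nup93 was the gene that passed in opposite directions at successive steps: its median was 227 and 273 CPM in wildtype and knockout oocytes, 26.1 and 61.3 CPM at the 2-cell stage and 89.9 and 86.9 CPM at the 4-cell stage. Over the alternatives the adjusted interaction p of Nup93 ran up to 0.0999 at the first of these steps, where the call was thus not kept throughout. It ran up to 0.0086 at the second. Adjacent steps share their middle stage, so they are not independent of each other.

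The rest of the pathway was read from 5 lists of 57 genes: other pore proteins, the Ran cycle, other transport receptors, mRNA export factors and the nuclear lamina. The receptor list also holds Ranbp9 and Ranbp10, which are not established transport receptors. In oocytes 1 of 41 tested was higher and 3 lower in knockout, beside the 12% of all genes called in either direction. The receptor Ranbp17 was higher (log2 fold change 0.42). Cse1l, which returns importin alpha to the cytoplasm, was lower (log2 fold change -0.47), as were Nutf2, the importer of Ran (-0.50), and the mRNA export cofactor Nxt1 (-0.54). In 2-cell embryos 4 of 43 were higher and 4 lower, beside 17.3% of all genes. Cse1l was now higher (0.57), with Ranbp17 (0.40) and the mRNA export factors Rae1 (0.56) and Pcid2 (0.55), while Ranbp2, the main cytoplasmic filament protein (-0.86), Alyref (-0.81) and the lamin B receptor Lbr (-0.77) were lower. So was Tmem33 (-0.62), named here after its value was seen.

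In 4-cell embryos 7 of 48 genes of these lists were higher and 5 lower in knockout, beside 8.97% and 7.46% of all genes. Rae1 was then lower (-0.62, log2 fold change) and Lbr higher (0.56), while the outer ring gene Seh1l was higher (0.46). The mRNA export gene Thoc7 was higher (0.41), and Ranbp9 and Ranbp10 differed in opposite directions (0.78 and -0.71). The other lower genes, named after their values were seen, were Sec13 (-0.69), Ranbp2 (-0.42) and Tpr (-0.35). Of the 7 higher genes, 2 were on the pore protein list and 3 on the receptor list, and not all are named here. In 8-cell embryos 3 of 47 were called, beside 11.6% of all genes, all higher: Ranbp9 (2.25), Ranbp6 (2.02) and Nupl1, the channel gene also called Nup58 (0.71). Ranbp9 stood at 428 CPM in knockout replicate 7 and at a mean of 38.3 CPM in the other knockout 8-cell embryos. Without that replicate all 3 were still called by edgeR, Ranbp9 at a log2 fold change of 0.97 (SE 0.21, adjusted p = 0.0031), Ranbp6 at 2.13 (SE 0.64, adjusted p = 0.025) and Nupl1 at 0.61 (SE 0.19, adjusted p = 0.028). The genotype comparisons of the lists and of the 42 genes rest on the same libraries, so they are set side by side and do not support each other.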

How the data were processed

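The 42 genes and the pathway and marker lists were chosen with earlier results of these data known. RNA of single oocytes and embryos was amplified with a SMART-Seq kit, per the labels' protocols. Trimmomatic 0.32, STAR 2.5.1a, featureCounts 1.5.1 and the mm10 build are named in the submitters' processing notes. The authors deposited estimated counts per gene, in which 30.6% of the values above 0 were not whole (the setting behind this is not given in the sources), and these were rounded here. CPM used the rounded counts. Kept libraries had 528377 to 4657857 counts (median 2130015), and 3 counts, the most that a count of 0 allows, came to 0.644 to 5.68 CPM, for counting error only. Tests used edgeR 4.0.16 (R 4.3.3) with trimmed mean of M-values factors, filterByExpr, robust quasi-likelihood fits and Benjamini-Hochberg adjustment over all genes tested, with a threshold of 0.05. The SE of an edgeR fold change was back-calculated, as the absolute log2 fold change over the square root of the F statistic. It therefore holds no information beyond the test. Genotypes were compared within a stage. Stage steps and interactions used the 4 groups of adjacent stages, and steps also needed a log2 fold change of at least 1. The code was tested on simulated data. Alternatives were DESeq2 1.42.0, other scaling, filters, minimum folds, depth as a covariate, a replicate block, replicates 1 to 8 or 9 to 16 alone, and libraries left out. Leaving out wildtype 2-cell replicate 3 and knockout 4-cell replicate 4 was chosen after seeing the data. Genes were named by rank of p or fold change among those called, by level within a role, or as Ran, Kpna2, Kpna7, Kpnb1, Xpo1 and Nup93, and others appear as members of a stated count. No protein sequences were used here.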

Additional observations from a re-analysis of the deposited data

Results flagged for a closer look

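For 10 results the genotype difference at one stage differed from that at the next by the interaction test of edgeR, given as the knockout change minus the wildtype change on the log2 scale. From oocyte to 2-cell embryo the values were 1.09 for Nup93 (SE 0.31, adjusted p = 0.031) and 0.56 for Nup35 (SE 0.13, adjusted p = 0.0097). Over the alternatives the adjusted p ran up to 0.0999 for Nup93 and 0.021 for Nup35. Both genes fell in both genotypes and fell less in knockout.

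From 2-cell to 4-cell embryo Nup93 had the value -1.43 (SE 0.36, adjusted p = 0.0043): its wildtype change was 1.35 and its knockout change -0.08. Kpna2 had -0.59 (adjusted p = 0.026), Nup107 -0.73 (adjusted p = 0.038) and Nup214 -0.66 (adjusted p = 0.0097). Over the alternatives the adjusted p ran up to 0.053 for Kpna2 and 0.074 for Nup107, so neither call held in all. Kpna3 had 0.74 (adjusted p = 0.0067), as a smaller fall in knockout. Nup62cl had 3.52 (SE 1.04, adjusted p = 0.014), and over the alternatives its value ran from 1.95 to 3.59 with adjusted p up to 0.29. Its highest knockout 4-cell value was 312 CPM, in replicate 4, where the next library had 102 CPM. Without that library Nup62cl was at the threshold (log2 fold change 2.75, adjusted p = 0.050).

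From 4-cell to 8-cell embryo Nup35 had -0.91 (SE 0.21, adjusted p = 0.0097), since it rose in wildtype by 1.16 and was not called in knockout at 0.25. Ipo8 had 2.85 (adjusted p = 0.014), and without knockout 8-cell replicate 7 it was not called (log2 fold change 0.60, adjusted p = 0.53).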

How the results depend on the processing

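The counts of members called changed with the setting, among them the wildtype stage counts when the minimum fold was dropped. A percentage in brackets is the share of all genes tested that was called under the same setting. In oocytes 2 members called became 1 with a minimum log2 fold change of 0.5 (7.80%) and 1 without a low-count filter (4.09%). The oocyte count was 5 among replicates 1 to 8 (8.52%), 1 among replicates 9 to 16 (2.18%) and 7 without knockout replicate 15 (19.6%). At the 2-cell stage 8 became 0 among replicates 9 to 16 (1.63%), with 6 members at an unadjusted p under 0.05. With at least 10 CPM in 16 libraries 11 were called (19.8%), 7 higher and 4 lower. At the 4-cell stage 6 became 0 among replicates 1 to 8 (1.86%) and 3 among replicates 9 to 16 (5.70%). At the 8-cell stage 2 became 1 without a filter (11.1%) and 1 without knockout replicate 7 (12.4%). With a replicate block the count was 0 (1.59%), with 6 members at an unadjusted p under 0.05 and Ipo8 at an edgeR adjusted p of 0.258. It was also 0 among replicates 1 to 8 (0.0138%) and among replicates 9 to 16 (1.62%), with 5 and 3 members at an unadjusted p under 0.05. With so few genes called in these fits, a count of 0 says little about the members. The interaction count from oocyte to 2-cell embryo went from 2 to 1 without a filter (0.690%) and to 4 with DESeq2 (5.70%). It was 4 without knockout oocyte replicate 15 (6.27%) and remained 2 in number without wildtype 2-cell replicate 3 (3.85%). From 4-cell to 8-cell it went from 2 to 1 with a replicate block (0.385%), with DESeq2 (2.39%) and without knockout replicate 7 (1.86%). With no minimum fold the wildtype count was 31 from oocyte to 2-cell embryo (77.4%) and 36 from 2-cell to 4-cell embryo (84.9%). From 4-cell to 8-cell it was 9 (36.5%). Without wildtype 2-cell replicate 3, chosen after seeing the data, 7 members were called between genotypes at the 2-cell stage (16.1%). Without knockout 2-cell replicate 13 the count was 9 (18.7%). Scaled by trimmed mean of M-values factors, the summed share was 0.754% in wildtype and 0.810% in knockout oocytes, and 0.962% and 1.03% in 4-cell embryos. For the 72 single-gene results, 505 alternative values stayed on their side of the threshold, 105 lost the call and none changed direction. These results were picked because the main fit called them, which favours a kept direction and leaves no call to be gained. Replicate numbers did not pair the genotypes: same-numbered libraries had correlations of -0.29 to 0.18, and 3, 1 and 1 of 16 and 2 of 15 knockout libraries were closest to their own number. With the replicate block 6 members were called between genotypes at the 2-cell stage, Kpna7 and Nup205 no longer, and 2 in oocytes and 6 at the 4-cell stage.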

Other observations

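How much single oocytes and embryos of a group differed from each other also varied with the gene and the stage. Over the members that averaged 20 CPM or more in a group, the median coefficient of variation was 17.4% in wildtype oocytes and 24.5% in knockout oocytes. It was 37.2% and 27.4% in wildtype and knockout 2-cell embryos, 31.2% and 30.7% in 4-cell embryos, and 26.3% and 44.0% in 8-cell embryos, where knockout replicate 7 is included. Without that replicate the knockout 8-cell value was 36.2%, and without knockout oocyte replicate 15 the knockout oocyte value was 17.5%. The wildtype 2-cell value was 33.6% without replicate 3, and the knockout 2-cell value 26.9% without replicate 13. The importin alpha Kpna3 had the lowest of all, 8.00% in knockout 2-cell embryos, with values from 923 to 1214 CPM. Nup37, at 9.33%, and Kpna7, at 10.4%, were also steady among wildtype oocytes. Ran varied by 13.8% among wildtype 4-cell and 16.2% among wildtype 8-cell embryos, the lowest value of both groups. Nup62cl, a relative of the channel gene Nup62, was at the other end, with 139% among wildtype 2-cell and 188% among knockout 4-cell embryos. Its 16 wildtype 2-cell values ran from 0 to 187 CPM, with a median of 14.9 CPM. These are descriptions of spread and were not tested.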
